A study of Mus musculus with 2 samples.

Results

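The subject is a set of 42 cell division genes in splenic natural killer (NK) cells of the mouse, followed in every sorted cell of 2 single-cell RNA libraries. The genes were taken from a list of names, with histone genes left out, and matched by symbol, and all 42 were found among the 31053 genes listed. They fall into 8 roles: 7 genes of origin licensing, 8 of DNA synthesis, 5 cyclin and CDK1 genes, 3 genes of the anaphase-promoting complex and of mitotic entry, 6 mitotic kinase and passenger complex genes, 4 kinetochore genes, 6 spindle and tubulin genes, and 3 chromatin genes. The questions were which of these genes had a level in most NK cells and which were seen more often where other division genes were also seen, how they related to the markers of NK maturation, and whether the libraries differed in them.

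A dividing cell first loads the MCM helicase onto its origins and copies its DNA with enzymes that supply nucleotides and a clamp that holds the polymerase. It then makes cyclin A and cyclin B, which switch on CDK1, builds a spindle on its kinetochores and destroys the cyclins through the anaphase-promoting complex. NK cells of the spleen mature from CD27-positive to CD11b-positive cells, and proliferation is known to be more common at the earlier stages. Several genes used in division, among them tubulins and the chromatin protein gene Hmgb2, are also used by cells that are not dividing.

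The animals were C57BL/6 mice that carried a floxed allele of EP3, the prostaglandin E2 receptor encoded by Ptger3. The control group, EP3F/F, had the floxed allele alone, and the knockout group, NKp46CreEP3F/F, also had Cre expressed under NKp46 (Ncr1), which is active in NK cells and other NKp46-positive lymphocytes. Splenic NK cells positive for CD27 and for CD11b were sorted, cells of 2 mice were pooled per group, and 1 library of 3′ tags was made from each pool; the labels give no age or sex. With 1 library per group no test between the groups can be made, and the pool of mice, the sort and the library cannot be told apart from the genotype. All intervals are at 95% and cover counting error only.

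The control library held 69853026 unique molecular identifiers (UMIs) over 11785 barcodes, and the knockout library 42795121 over 10615. A gate on NK receptor genes (Ncr1, Klrb1c, Klrk1) and against the markers of other lineages kept 10271 control and 9073 knockout cells, with medians of 5816 and 3823 UMIs per cell. To make shares of cells comparable, cells were thinned at random to 2000 UMIs each, leaving 10138 control and 8882 knockout cells. The libraries shared 33 barcode sequences. Ptger3 itself had 13 UMIs in the gated control cells and 0 in the knockout, where a count of 0 allows up to 3. Of 32 markers of other lineages, none had a UMI in more than 1.34% of non-dividing control or 1.92% of non-dividing knockout cells after thinning.

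Promoter sequences are shown for 7 members as examples, chosen for their short motifs, from a helicase gene to genes of mitosis. Since the choice was made on the motifs, members that lack them are named further below. In the expression values over both libraries, only helicase genes had intervals on the side of cells led by S phase genes. No DNA synthesis gene did. RefSeq windows on GRCm38.p6, running from 250 bases before to 50 after each start, were found for 34 of the 42 members (36 windows). No window was used for Mcm4, Stmn1, Spc24, Gmnn, Esco2, Aurkb, Tpx2 and Ccna2. The motifs searched on both strands were the E2F letters TTTGGCGC, TTTCGCGC, TTTGCCGC and TTTCCCGC, the cell cycle genes homology region (CHR) letters TTTGAA and TTCGAA, and CCAAT. The 150 bases before each start follow, 5′ to 3′ on the gene's strand, with every match in capitals (the E2F matches are the runs of 8 or more capitals, the CHR matches those of 6 and the CCAAT matches those of 5).
Mcm6, chr1:128359706-128359855, minus strand: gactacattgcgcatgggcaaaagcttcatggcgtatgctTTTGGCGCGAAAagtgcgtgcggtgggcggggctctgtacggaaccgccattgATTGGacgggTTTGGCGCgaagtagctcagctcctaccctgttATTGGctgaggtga
Cdc20, chr4:118437344-118437493, minus strand: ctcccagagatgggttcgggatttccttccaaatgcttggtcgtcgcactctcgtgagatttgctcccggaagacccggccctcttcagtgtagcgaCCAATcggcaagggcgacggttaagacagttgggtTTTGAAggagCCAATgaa
Ube2c, chr2:164769779-164769928, plus strand: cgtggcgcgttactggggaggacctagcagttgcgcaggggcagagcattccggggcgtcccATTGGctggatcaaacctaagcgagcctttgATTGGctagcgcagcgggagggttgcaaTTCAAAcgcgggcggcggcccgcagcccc
Cdk1, chr10:69352913-69353062, minus strand: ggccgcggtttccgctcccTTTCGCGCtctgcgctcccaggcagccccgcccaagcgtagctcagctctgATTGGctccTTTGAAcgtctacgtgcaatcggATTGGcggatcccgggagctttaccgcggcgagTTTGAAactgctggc
Kif11, chr19:37376232-37376381, plus strand: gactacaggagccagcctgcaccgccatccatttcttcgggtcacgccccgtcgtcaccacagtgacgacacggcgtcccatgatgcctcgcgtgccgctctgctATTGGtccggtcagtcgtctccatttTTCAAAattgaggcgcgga
Top2a, chr11:99024190-99024339, minus strand: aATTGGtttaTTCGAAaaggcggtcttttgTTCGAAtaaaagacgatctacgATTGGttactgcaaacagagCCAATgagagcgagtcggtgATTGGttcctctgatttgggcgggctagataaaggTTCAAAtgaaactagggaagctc
Mki67, chr7:135716380-135716529, minus strand: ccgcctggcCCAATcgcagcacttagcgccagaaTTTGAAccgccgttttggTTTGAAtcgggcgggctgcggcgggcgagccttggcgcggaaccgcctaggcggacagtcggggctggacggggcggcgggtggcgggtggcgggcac

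The Mcm6 stretch, of a helicase gene, held E2F letters in 2 places and no CHR letters, while those of Cdc20, Ube2c and Kif11 held CHR letters and no E2F letters. The CHR match began 18 bases before the start in Cdc20 and 29 bases before it in Ube2c. Cdk1, the kinase gene active in both S phase and mitosis, held E2F letters and CHR letters together. Top2a and Mki67 held CHR letters in 3 or 2 places of the stretch printed.

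Among the 6 windows of licensing members (5 genes), 4 (66.7%) held E2F letters, against 2.26% of all 32851 promoter windows and 4.09% of the 7487 windows of genes measured in these NK cells. In the 22 windows of members with mitotic roles (cyclins and CDK1, the anaphase-promoting complex, kinases, kinetochore, spindle and chromatin), 16 (72.7%) held CHR letters, against 19.2% and 13.8%. DNA synthesis members had CHR letters in 0 of 8 windows and E2F letters in 2. The letters CCAAT stood in 31 of the 36 member windows (86.1%), against 37.4% of all windows and 37.1% of those of measured genes. CHR and CCAAT letters occurred together in 18 of 36 member windows (50%) and in 7.52% of all windows. A match of letters is a description of these windows only.

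To sort the members by where they were seen, a cell was placed by the number of different genes it held from an outside list of 64 cell cycle genes that contains none of the 42. Cells with 0 or 1 outside genes are called non-dividing here (8329 control, 7518 knockout), and cells with at least 4 are called dividing (159 control, 71 knockout). Many cells near that limit held few division genes: 83 of the 106 control cells and 46 of the 51 knockout cells with 4 or 5 outside genes held none of the 26 members described below as confined. Cells with at least 6 outside genes, 53 in the control and 20 in the knockout, held a mean of 5.36 and 7.10 of those 26 members, against 0.0671 and 0.0564 in non-dividing cells. Of these cells, 31 control and 16 knockout cells held 3 or more of the 26, while 8 control and 3 knockout cells held none. Cells with at least 6 outside genes are called cycling cells here, by their outside genes alone, and carry most of the description. Their median UMI counts, 12212 and 10810, were above those of non-dividing cells, 5823 and 3858; doublets were not removed, and the part of depth in the calls beyond thinning was not tested.

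**Figure D1:**
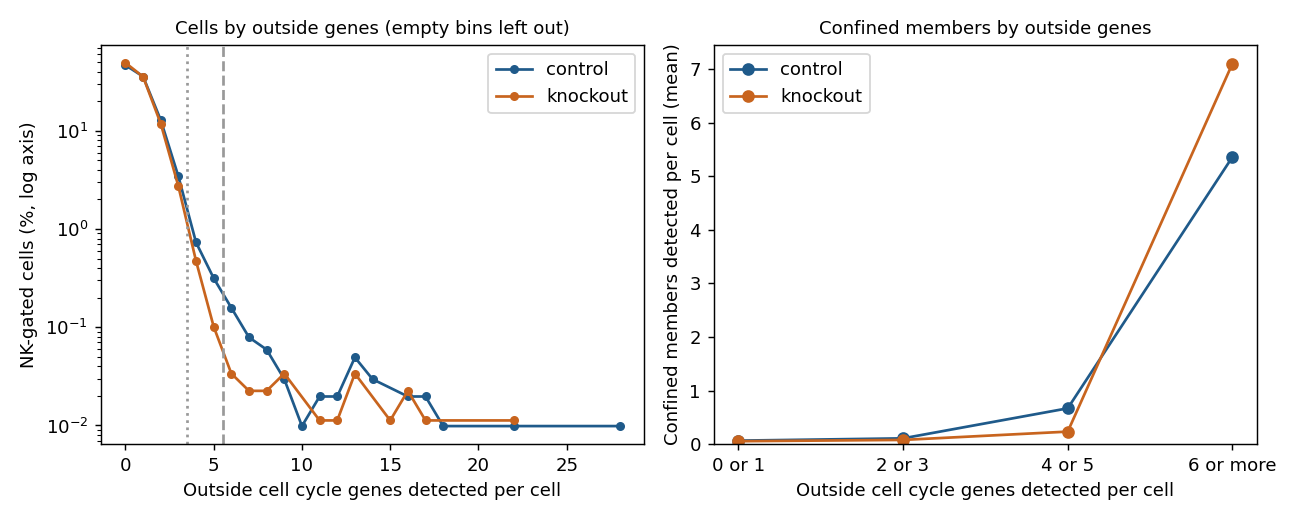
Left: share of NK-gated cells (percent, log axis) by the number of outside cell cycle genes detected at 2000 UMIs, in the control (blue) and knockout (orange) library; the dotted line marks the limit of 4 genes and the dashed line that of 6. Right: mean number of the 26 confined members per cell in each range of outside genes. The curves fall steeply up to 5 genes and then flatten into a thin tail, and the mean number of confined members per cell is highest in that tail (5.36 and 7.10).

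Of the 7 NK markers, some were as common in cycling cells as in non-dividing cells and some less so. Gzma, the granzyme A gene, had a UMI in 53 of 53 control and 20 of 20 knockout cycling cells, and Klre1, an NK receptor gene, in 47 and 20. Klrb1c, the NK1.1 gene, was in 60.4% of control cycling cells against 82.5% of non-dividing cells, and in 65% against 84.9% in the knockout. Ncr1 was in 75.5% against 76.7% in the control and in 55% against 77.9% in the knockout, and Klrk1 in 88.7% against 95.1% and in 80% against 93.9%. Eomes, a transcription factor gene of NK cells, was in 49.1% against 48.6% in the control and in 25% against 42.7% in the knockout, and Klra8 in 58.5% against 60.6% and in 40% against 46.4%. The gate asked for Ncr1, Klrb1c or Klrk1 and limited the markers of other lineages in every cell, so the low levels of the latter say nothing further about the cycling cells. At full depth, 10 of the 53 and 3 of the 20 held 1 or 2 UMIs of any such marker (18.9% and 15%), against 14.7% and 15.3% of non-dividing cells.

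The members split into 9 with a background level, 7 intermediate and 26 confined. A background member had a UMI in at least 5% of non-dividing cells of both libraries, a confined member in under 1% of both, and the remaining members lay between. The nearest members inside the upper limit were Mcm7 at 5.09% in the control and Mcm4 at 5.31% in the knockout, and the nearest outside it were Rrm1 at 4.20% in the control and Gmnn at 3.78% in the knockout. At the lower limit, Mki67 lay just inside at 0.948% and 0.492%, and Tyms just outside at 1.39% and 1.41%. These shares define the classes and are given as a description.

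The background class held Hmgb2, Tubb5, Tuba1b, Stmn1, Pcna, Cenpa, Mcm4, Mcm6 and Mcm7. Confined members, in contrast, had a large part of their UMIs in few cells: a median of 50.2% of the UMIs of a confined member lay in the 159 dividing control cells (range 12.6% to 95.5%) and 56.4% in the 71 dividing knockout cells (14.9% to 86.4%). More than 50% lay there for 13 of the 26 in the control and 16 in the knockout. Single UMIs of a confined member were still most often met in non-dividing cells, which are far more numerous: of the cells with at least 1 confined member, 494 of 689 in the control and 402 of 507 in the knockout had 0 or 1 outside genes. For background members these medians were 9.69% and 5.41%. The dividing cells made up 1.57% and 0.799% of all thinned cells.

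Free RNA in a droplet can also give a UMI, so the shares were set beside those of barcodes with other-lineage markers and at most 1 UMI of the NK receptor genes, 51 control and 147 knockout barcodes at the same depth of 2000 UMIs. Hmgb2 was the one member whose interval in non-dividing NK cells lay above that of these barcodes, in both libraries (62.2% against 41.2%, and 70.8% against 45.6%). Tubb5 and Tuba1b lay below them, with Tubb5 at 26.0% against 52.9% in the control and 29.7% against 44.9% in the knockout. The other 6 background members overlapped them, with Stmn1 at 11.5% against 15.7% and 19.2% against 14.97%. A background share of these 8 members therefore cannot be read as NK expression from the share alone; the other-lineage barcodes may also express the genes themselves. In cycling cells, 8 of the 9 background members in the control and 7 of 9 in the knockout lay above the other-lineage interval. Fewer of the other classes did: 4 of 7 intermediate members in the control and 1 of 7 in the knockout, and 9 and 18 of the 26 confined members. By point value 26 and 25 of the confined members were higher in cycling cells than in these barcodes. The share over all genes is not given.

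**Figure D2:**
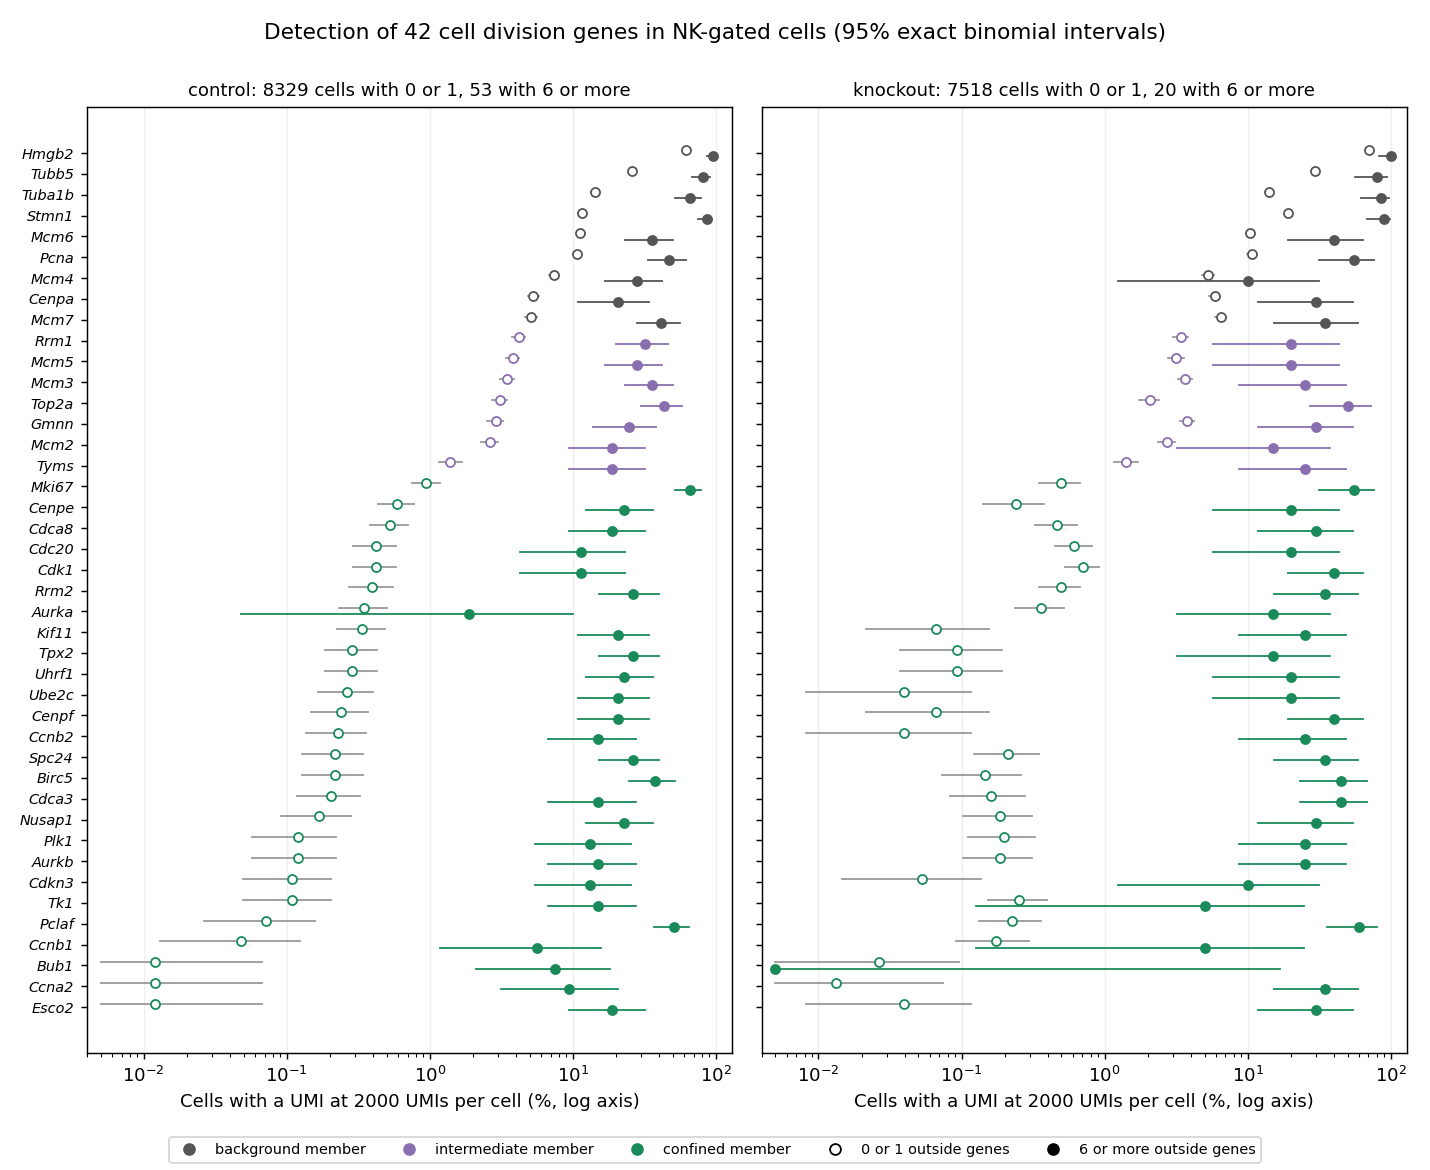
Share of cells with a UMI of each of the 42 members at 2000 UMIs per cell (percent, log axis), with 95% exact binomial intervals, in the control (left) and knockout (right). Open circles are cells with 0 or 1 outside cell cycle genes, filled circles cells with 6 or more, colours give the class, and values under 0.005% are drawn at 0.005%. Hmgb2 stands at 62.2% and 70.8% in non-dividing cells, whereas the confined members start below 1% and reach up to 66.0% in cycling cells.

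The chromatin members spanned all 3 classes. Hmgb2 (ENSMUSG00000054717), which encodes a DNA-bending protein, went from 62.2% to 96.2% in the control and from 70.8% to 100% in the knockout, from non-dividing to cycling cells. Top2a, the topoisomerase that untangles replicated DNA, went from 3.07% to 43.4% in the control and from 2.06% to 50% in the knockout. Mki67, the gene of the Ki-67 antigen that coats mitotic chromosomes, went from 0.948% to 66.0% in the control and from 0.492% to 55% in the knockout. The fold between the states was thus largest for Mki67 and smallest for Hmgb2, which was already common. The Hmgb2 level was also higher in cycling cells, going from 549 to 3535 UMIs per 1000000 (CPM) in the control and from 696 to 5765 in the knockout. A 3′ tag is counted once per transcript, so CPM values here are not divided by length.

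Spindle and tubulin members divided the same way. Stmn1, which encodes the tubulin-binding protein stathmin, went from 11.5% to 86.8% in the control and from 19.2% to 90% in the knockout. Tubb5, a beta-tubulin gene, went from 26.0% to 81.1% in the control and from 29.7% to 80% in the knockout, and Tuba1b, an alpha-tubulin gene, from 14.2% to 66.0% in the control and from 14.0% to 85% in the knockout. These 3 had a background level, unlike the 3 spindle genes proper. Tpx2, an activator of Aurora A on the spindle, went from 0.288% to 26.4% in the control and from 0.0931% to 15% in the knockout. Nusap1, a microtubule-bundling protein gene, went from 0.168% to 22.6% in the control and from 0.186% to 30% in the knockout, and Kif11, the gene of the motor that separates the spindle poles, from 0.336% to 20.8% in the control and from 0.0665% to 25% in the knockout. All 3 spindle genes were thus confined in both libraries.

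All 6 helicase members were background or intermediate. Mcm6 went from 11.3% to 35.8% in the control and from 10.3% to 40% in the knockout, and Mcm4 from 7.35% to 28.3% in the control and from 5.31% to 10% in the knockout. Mcm7 went from 5.09% to 41.5% in the control and from 6.49% to 35% in the knockout. The 3 background helicase genes thus gained less in share than Stmn1 or Mki67. Mcm2 went from 2.63% to 18.9% in the control and from 2.73% to 15% in the knockout, Mcm3 from 3.48% to 35.8% in the control and from 3.66% to 25% in the knockout, and Mcm5 from 3.79% to 28.3% in the control and from 3.15% to 20% in the knockout. Gmnn, which encodes geminin, the protein that keeps origins from being licensed again, went from 2.88% to 24.5% in the control and from 3.78% to 30% in the knockout. None of the 7 licensing genes was confined.

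DNA synthesis members ranged from background to confined. Pcna, the sliding clamp gene, went from 10.7% to 47.2% in the control and from 10.7% to 55% in the knockout, whereas Pclaf, which encodes a small protein bound to that clamp, went from 0.0720% to 50.9% in the control and from 0.226% to 60% in the knockout. Of the UMIs of Pclaf, 86.3% in the control and 81.7% in the knockout lay inside dividing cells. Esco2 (95.5% and 84.8%), Bub1 (83.3% and 80%) and Ccna2 (79.6% and 86.4%) had similarly high shares. Rrm1, the large subunit of ribonucleotide reductase, went from 4.20% to 32.1% in the control and from 3.41% to 20% in the knockout, and the small subunit gene Rrm2 from 0.396% to 26.4% in the control and from 0.492% to 35% in the knockout. The large subunit gene was therefore seen in more non-dividing cells than the small one in both libraries, while in cycling cells their intervals overlapped.

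Of the genes for thymidylate supply, Tyms was also seen in more non-dividing cells than Tk1. Tyms, thymidylate synthase, went from 1.39% to 18.9% in the control and from 1.41% to 25% in the knockout, and Tk1, thymidine kinase, from 0.108% to 15.1% in the control and from 0.253% to 5% in the knockout. Uhrf1, needed to copy DNA methylation, went from 0.288% to 22.6% in the control and from 0.0931% to 20% in the knockout, and Esco2, the cohesin acetyltransferase gene, from 0.0120% to 18.9% in the control and from 0.0399% to 30% in the knockout. The knockout share of Tk1 rests on 1 of 20 cells.

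The 5 cyclin and CDK1 genes were all confined. Cdk1 went from 0.420% to 11.3% in the control and from 0.705% to 40% in the knockout, and Ccna2, the cyclin A gene of S phase and G2, from 0.0120% to 9.43% in the control and from 0.0133% to 35% in the knockout. Of the cyclin B genes, Ccnb2 went from 0.228% to 15.1% in the control and from 0.0399% to 25% in the knockout, and Ccnb1 from 0.0480% to 5.66% in the control and from 0.173% to 5% in the knockout. Cdkn3, a phosphatase gene acting on CDKs, went from 0.108% to 13.2% in the control and from 0.0532% to 10% in the knockout. Ccnb1 was thus the least often seen of these genes, in 3 control cells and 1 knockout cell.

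Of the mitotic entry and exit genes, Cdc20, an activator of the anaphase-promoting complex, went from 0.420% to 11.3% in the control and from 0.612% to 20% in the knockout. Ube2c, its ubiquitin-conjugating enzyme, went from 0.264% to 20.8% in the control and from 0.0399% to 20% in the knockout, and Cdca3, a trigger of mitotic entry, from 0.204% to 15.1% in the control and from 0.160% to 45% in the knockout. All 3 were confined, and each was in at most 11 cycling cells of a library.

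Among the kinases and the passenger complex, Birc5, the survivin gene, was the most often seen and went from 0.216% to 37.7% in the control and from 0.146% to 45% in the knockout. Cdca8, the borealin gene, went from 0.528% to 18.9% in the control and from 0.466% to 30% in the knockout, and Aurkb, the kinase of the same complex, from 0.120% to 15.1% in the control and from 0.186% to 25% in the knockout. Aurka, the spindle pole kinase, went from 0.348% to 1.89% in the control and from 0.359% to 15% in the knockout. The control share of Aurka thus rests on 1 of 53 cycling cells. At full depth it had a UMI in 9.43% of control cycling cells and 0.864% of non-dividing control cells. Plk1, the polo-like kinase gene, went from 0.120% to 13.2% in the control and from 0.200% to 25% in the knockout. Bub1, a checkpoint kinase gene, went from 0.0120% to 7.55% in the control. In the knockout it was seen in 0 of 20 cycling cells, with an interval up to 16.8% of cells with a UMI at this depth. At full depth Bub1 had a UMI in 40% of these 20 cells.

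Kinetochore members included 1 background gene, Cenpa, which encodes the centromeric histone H3 variant and went from 5.29% to 20.8% in the control and from 5.91% to 30% in the knockout. Cenpe, a kinetochore motor gene, went from 0.588% to 22.6% in the control and from 0.239% to 20% in the knockout, and Cenpf from 0.240% to 20.8% in the control and from 0.0665% to 40% in the knockout. Spc24, a subunit gene of the NDC80 complex, went from 0.216% to 26.4% in the control and from 0.213% to 35% in the knockout. These 3 were confined, although Cenpa was not.

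The background members were also read against the confined ones inside single cells. Stmn1 had a UMI in 11.9% of control cells with no confined member, in 17.6% of those with 1 and in 85.7% of the 63 cells with 3 or more. In the knockout the corresponding shares were 19.5%, 20.8% and 91.3% (23 cells). Hmgb2 went from 62.3% to 98.4% in the control and from 71.2% to 100% in the knockout between cells with none and cells with 3 or more. Cenpa went from 5.31% to 44.4% and from 5.74% to 43.5%. Mcm4 moved less, from 7.73% to 14.3% in the control and from 5.40% to 4.35% in the knockout, where the last value is 1 cell of 23. Stmn1, Hmgb2 and Cenpa thus had shares in cells with 3 or more confined members that lay above those in cells with none, beyond counting intervals, in both libraries.

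The cycling cells were next divided by which part of the outside list led, the 24 S genes or the 40 G2/M genes. In the control 32 of 53 were led by S genes (60.4%, interval 46.0% to 73.5%) and 21 by G2/M genes, and in the knockout 9 of 20 were led by S genes (45%, interval 23.1% to 68.5%), 10 by G2/M genes and 1 was tied. The intervals of the 2 libraries overlap. At the limit of 4 outside genes the S-led shares were 74.2% and 74.6%.

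Over both libraries, 31 members had a higher level in G2/M-led cycling cells, 6 in S-led cells, and for 5 the interval held no difference. These counts describe the members only, since no share over all genes is given for this comparison. Each of the 6 S-led members was a subunit of the MCM helicase. On the log2 scale of S-led over G2/M-led CPM, Mcm5 lay at 1.55 (interval 0.98 to 2.16) and Mcm6 at 0.93 (interval 0.51 to 1.36). Mcm3 lay at 1.43, Mcm2 at 1.38, Mcm4 at 1.10 and Mcm7 at 0.97. Their order differed between the libraries, with Mcm2 at 1.45 and Mcm7 at 0.79 as the ends in the control and Mcm5 at 2.42 and Mcm4 at 0.37 in the knockout. All 6 intervals lay above 0 in the control alone, whereas in the knockout alone only those of Mcm5 and Mcm7 did. Gmnn, Pcna, Tyms, Tk1 and Uhrf1 were the 5 members whose interval held 0, with Pcna at -0.01 (interval -0.34 to 0.33).

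At the other end stood the genes of mitotic exit and the B cyclins. Ube2c had a log2 difference of -4.15 (interval -5.10 to -3.33), with 3 UMIs in S-led and 77 in G2/M-led control cells and 10 and 69 in the knockout. Cdc20 lay at -4.14 (interval -5.50 to -3.03), with 2 and 40 UMIs in the control and 5 and 38 in the knockout. Cdkn3 lay at -3.99, Ccnb2 at -3.66 and Ccnb1 at -3.47. Aurka had 0 UMIs in control S-led cells and Plk1 0 in knockout S-led cells. The intervals of these genes over both libraries lay below those of the helicase genes.

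Over both libraries the kinase gene Aurka, at -3.66, lay among these genes, and most kinetochore, spindle and other kinase genes had smaller differences. Cenpa lay at -3.34, Cenpf at -3.05 and Cenpe at -2.78, whereas Spc24 was nearer to 0 at -0.90 (interval -1.33 to -0.47). In the knockout alone Cenpa, at -3.76, lay beyond Ube2c, at -2.64. Over both libraries Birc5, Cdca8, Nusap1 and Kif11 lay between -2.47 and -2.41. Tpx2 lay at -2.24, Cdca3 at -2.25, Aurkb at -1.94 and Bub1 at -1.75. Bub1 was the 1 member of the 31 without the same sign in both libraries, with 6 UMIs in each kind of knockout cell. Mki67 and Top2a leaned to G2/M less strongly, at -1.52 and -1.37.

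Several genes named for DNA synthesis also had higher levels in G2/M-led than in S-led cells. S-led cells held fewer transcripts of confined members. Their median summed confined level per cell was 973 CPM against 8681 for G2/M-led cells among control cells. Among knockout cells these medians were 2114 and 9560. The part of this in the ratios was not tested, so a lower level in S-led cells need not mean a lower level in S phase. Over both libraries Esco2 lay at -1.64 (interval -2.27 to -1.04), Pclaf at -0.91 (interval -1.16 to -0.66), Rrm2 at -0.88 and Rrm1 at -0.48 (interval -0.91 to -0.04). In the knockout alone the intervals of Esco2 (-0.26), Rrm2 (-0.45) and Rrm1 (-0.43) held 0, and that of Pclaf (-0.56) lay below 0. Cdk1, at -1.05, was the nearest to 0 of the 5 cyclin and CDK1 genes. The background members Hmgb2, Tubb5, Tuba1b and Stmn1 lay at -1.42, -0.95, -0.94 and -0.61. At the limit of 4 outside genes, 33 members were G2/M-led, 6 S-led and 3 undecided, again without a share over all genes.

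The promoter letters can be set beside this division, but the 6 windows of S-led members are the same 6 licensing windows counted above. E2F letters stood in 4 of the 6 windows of S-led members and in 2 of the 25 windows of G2/M-led members. CHR letters stood in 16 of the 25 G2/M-led windows and in 14 of these began within 50 bases of the start. Of the S-led windows 2 of 6 held CHR letters (33.3%), against 19.2% of all windows. The G2/M-led DNA synthesis members Pclaf, Rrm1 and Rrm2 held no CHR letters, and Pclaf held E2F letters. Ccnb1, Cenpe, Birc5, Nusap1, Tuba1b and Tubb5 were mitotic members with no CHR letters in the window.

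**Figure D3:**
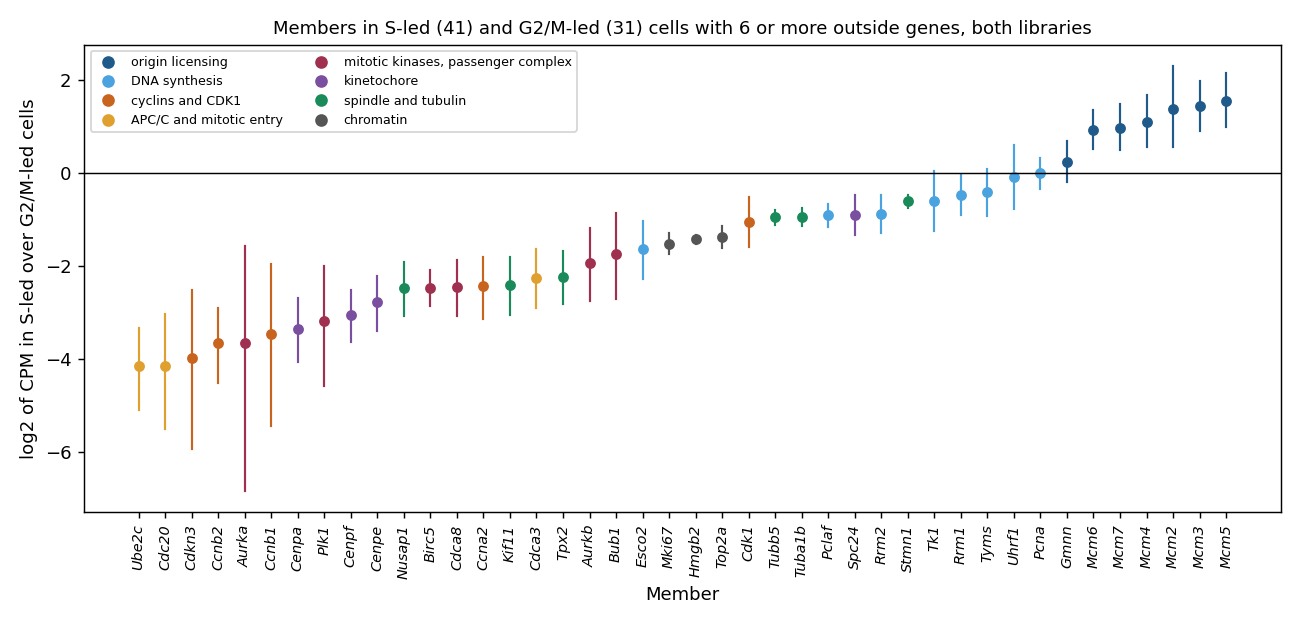
Log2 of the level (CPM) of each member in S-led over G2/M-led cells, for the 72 of 73 cycling cells of both libraries that were not tied; lines are 95% counting intervals and colours give the role. The 6 helicase genes on the right lie above 0, from 0.93 to 1.55, and Ube2c and Cdc20 on the left near -4.1. S-led cells had a lower median summed level of confined members, and the part of this in the values was not tested.

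Dividing cells were found along the whole range of maturation. Each cell had a score, the number of its 12 mature markers less that of its 13 immature markers, and cells were divided at scores of 0 and 2 into ranges named least mature, intermediate and most mature. In the control, cycling cells were 0.603%, 0.553% and 0.410% of these ranges (22, 17 and 14 cells), and their intervals overlapped. In the knockout they were 0.0530%, 0.152% and 0.565% (2, 4 and 14 cells), and the ratio of the least to the most mature range was 0.0937 (interval 0.0103 to 0.408). At the limit of 4 outside genes the knockout values were 0.609%, 0.836% and 1.05%, with overlapping intervals, and the control values 1.59%, 1.496% and 1.61%. Without thinning, the knockout ratio of the least to the most mature range at that limit turned to 1.39. The knockout slope thus rests on 20 cycling cells of a pool of 2 mice. All cells came from the gate for both CD27 and CD11b, so less and more mature are relative terms here.

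At the limit of 4 outside genes, single maturation markers showed few differences between dividing and non-dividing cells. The counts that follow describe these markers only, as the share of all genes that differ is not given. In the control, 2 of the 13 immature and 2 of the 12 mature markers were lower in dividing cells beyond overlapping intervals, and none was higher. Those were Cd27 (23.2% of non-dividing and 13.8% of dividing cells), Ctla2a (76.3% and 64.8%), Itgam, the CD11b gene (25.7% and 17.0%), and Spn, the CD43 gene (41.1% and 31.4%). In the knockout, Ctla2a (86.8% and 67.6%) and Thy1 (11.7% and 2.82%) were lower and none was higher. In the cycling cells of the control, Ctla2a (56.6%), Emb (15.1% against 29.6%), Itgam (11.3%), S1pr5 (11.3% against 26.5%) and Zeb2 (30.2% against 46.5%) lay below their non-dividing intervals. In those of the knockout, Ctla2a (35%), Emb (5% against 34.2%), Ltb (0% against 22.3%) and Cd27 (5% against 26.8%) did. No marker lay above in either library. Spn, Thy1, Emb, S1pr5, Zeb2 and Ltb are named because their intervals stood apart.

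By point value 9 of the 13 immature and 8 of the 12 mature markers were seen less often in dividing control cells. Whether this differs from all genes was not tested. The rule for named markers takes the 3 highest and 3 lowest ratios of dividing over non-dividing control cells in each list, and the intervals of those not yet given overlapped. The immature ones were Cxcr3 at 5.66% against 9.99%, Cd160 at 21.4% against 20.01%, Slamf6 at 4.40% against 4.03% and Il7r at 5.03% against 3.16%. Of the mature ones, Prdm1 was at 6.29% against 10.0%, Ly6c2 at 8.81% against 13.5%, Klrg1 at 13.2% against 11.1%, Cx3cr1 at 2.52% against 1.70% and Gzma at 98.7% in both. Both CD27 and CD11b transcripts were therefore seen less often in dividing control cells, and the mean score was 1.30 in dividing and 1.37 in non-dividing control cells (SD over cells 2.44 and 2.55). In the knockout it was 1.39 in dividing and 0.950 in non-dividing cells (SD 2.54 and 2.62), and 2.95 in the 20 cycling cells (SD 1.96).

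The maturation ranges were compared for the members only, and how many of all genes differ between them is not given. Stmn1 was the 1 member of 42 whose share in non-dividing cells had separate intervals at the ends of the maturation range. In the control it was 8.29% in the least mature range, 12.7% in the intermediate and 13.9% in the most mature. In the knockout it was 16.9% in the least mature range, 19.1% in the intermediate and 22.7% in the most mature. The most mature range was above the least mature by 1.67-fold in the control and 1.34-fold in the knockout, with intervals apart in both. Hmgb2, by comparison, was 61.9% in the least mature range, 63.6% in the intermediate and 61.3% in the most mature in the control and 70.9% in the least mature range, 70.2% in the intermediate and 71.2% in the most mature in the knockout. Median UMIs per cell ran the other way, from 6274 to 5336 in the control and from 4075 to 3604 in the knockout between the least and most mature ranges. With cells thinned to 1000 UMIs the control ratio of Stmn1 was 1.18 (interval 0.963 to 1.46), which includes no difference.

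**Figure D4:**
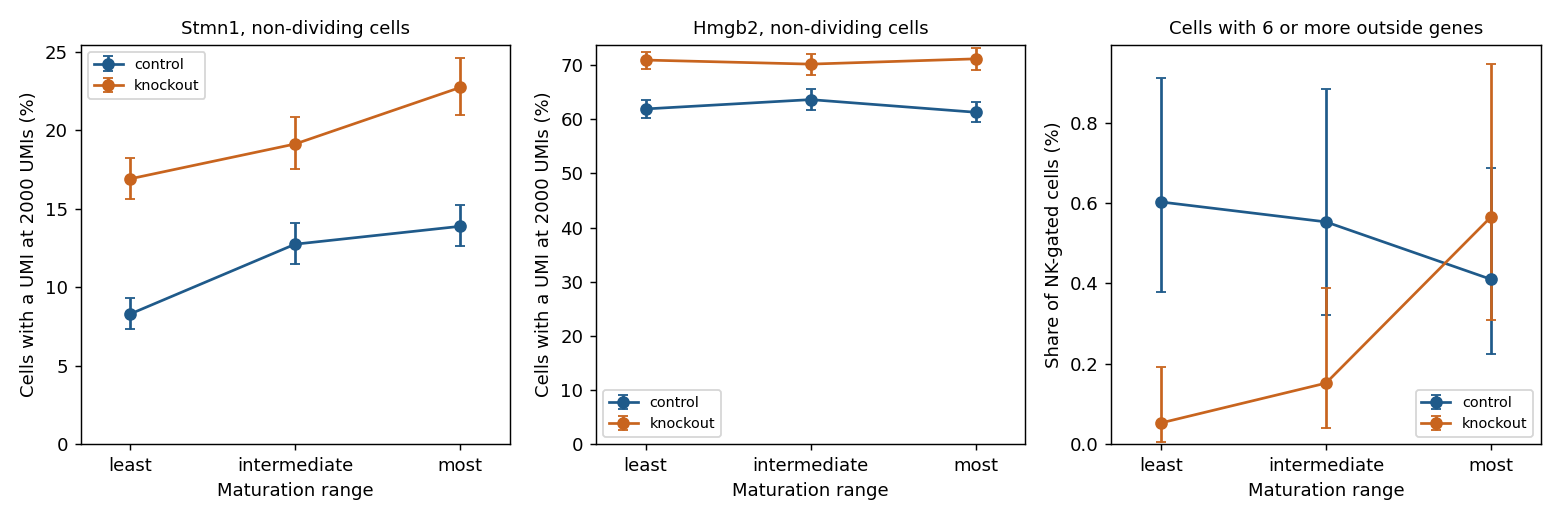
Share of non-dividing cells with a UMI of Stmn1 (left) and Hmgb2 (middle), and share of cycling cells among all NK-gated cells (right), in 3 ranges of the maturation score, in the control (blue) and knockout (orange); bars are 95% exact binomial intervals. Stmn1 is lowest in the least mature range of both libraries (8.29% against 13.9% in the most mature, and 16.9% against 22.7%), the Hmgb2 intervals overlap, and the cycling share is highest in the most mature range of the knockout on 2, 4 and 14 cells.

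The libraries differed in how many cells were called dividing. The share was 1.57% (interval 1.34% to 1.83%) in the control and 0.799% (0.625% to 1.01%) in the knockout, a ratio of 0.510 (interval 0.380 to 0.678). Cycling cells were 0.523% and 0.225%, a ratio of 0.431 (0.244 to 0.733). Cells with 3 or more confined members, a class that was itself set with the outside list, were 0.621% (63 cells) and 0.259% (23 cells). Without outside genes seen in 1% or more of all cells, a restriction chosen after seeing the data, the shares were 0.286% and 0.180% and the interval of the ratio (0.319 to 1.199) included 1. Of the 21 genes so removed 12 were measured, of which 2 were higher and 5 lower in the knockout library; their part in the ratio was not tested. With 1 pool per genotype these ratios compare 2 libraries.

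Over all gated cells, the summed level of the 26 confined members was 96.5 CPM in control cells (6282 UMIs) and 73.6 CPM in knockout cells (2808 UMIs), a log2 ratio of -0.39 (interval -0.46 to -0.33). The sum over all 42 members went the other way, from 1441 to 1552 CPM, because Hmgb2 alone made up 42.4% and 47.3% of it. Single confined members went both ways: intervals lay below 0 for 11, above 0 for 2 and held 0 for 13. Of the 4525 genes in the same range of mean level (0.565 to 12.7 CPM), 28% had intervals below 0 and 29.3% above. Only Mki67 among them reached a mean of 10 CPM.

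Of the 42 members, 16 had a mean of at least 10 CPM over the libraries, the limit for a gene to count as measured. Of these 16, 1 was higher in the knockout by at least 0.32 on the log2 scale and 4 were lower, against 14.9% higher and 29.1% lower among all 7335 measured genes. The median of the 16 was -0.12, against -0.07 over all measured genes. The members' counts were thus near those of all genes.

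The 1 higher member was Stmn1, at 92.9 CPM in control and 127 CPM in knockout cells, a log2 ratio of 0.45 (interval 0.40 to 0.51). After the ratio was set against the 300 measured genes nearest in exon length it was 0.22, below the limit. In non-dividing cells alone the log2 ratio was 0.70 (interval 0.63 to 0.77), from 66.0 to 107 CPM. Its difference between the libraries was therefore larger without the dividing cells.

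The 4 lower members were Mki67, Top2a, Mcm4 and Rrm1. Mki67 was at 17.8 CPM in control and 7.63 CPM in knockout cells, a log2 ratio of -1.23 (interval -1.42 to -1.04). Top2a was at 26.1 CPM in control and 16.0 CPM in knockout cells (-0.71 (interval -0.85 to -0.58)), and Mcm4 at 44.6 CPM in control and 30.1 CPM in knockout cells (-0.56 (interval -0.66 to -0.46)). Rrm1 was at 25.1 CPM in control and 17.6 CPM in knockout cells (-0.52 (interval -0.65 to -0.38)), which became -0.16 after adjustment for length. Mki67, Top2a and Mcm4 stayed beyond the limit after that adjustment, at -0.88, -0.36 and -0.61.

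The other 11 measured members lay between the limits. Hmgb2 was at 612 CPM in control and 734 CPM in knockout cells (0.26 (interval 0.24 to 0.29)), and Tubb5 at 169 CPM in control and 196 CPM in knockout cells (0.22 (interval 0.17 to 0.26)). Tuba1b was at 90.6 CPM in control and 87.1 CPM in knockout cells and Pcna at 62.0 CPM in control and 57.8 CPM in knockout cells. Both were close to even between the libraries. The helicase genes Mcm6, Mcm5, Mcm3 and Mcm2 had ratios of -0.24, -0.23, -0.23 and -0.14. Mcm7, Gmnn and Cenpa had ratios of 0.17, 0.17 and 0.15. So of the helicase genes Mcm7 alone had a ratio above 0.

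Within non-dividing cells 15 members were measured, of which 3 were higher (Stmn1, Hmgb2 at 0.34 and Mcm7 at 0.33) and 3 lower (Top2a at -0.66, Mcm4 at -0.49 and Rrm1 at -0.47), against 14.8% and 29.6% of 7330 genes. Their median was 0.01. Top2a, Mcm4 and Rrm1 were thus lower in the knockout library also in cells with 0 or 1 outside genes, before adjustment for length. After that adjustment Top2a (-0.29), Rrm1 (-0.11) and Hmgb2 (0.26) lay within the limit of 0.32. Mcm4 (-0.54), Stmn1 (0.47) and Mcm7 (0.38) stayed beyond it.

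Below 10 CPM the largest ratios were those of Uhrf1, at 3.09 CPM in control and 0.970 CPM in knockout cells (-1.67 (interval -2.22 to -1.16)), and Cenpe, at 6.27 CPM in control and 2.46 CPM in knockout cells (-1.35 (interval -1.69 to -1.02)). Kif11 (-0.86 (interval -1.28 to -0.45)), Tpx2 (-0.81 (interval -1.21 to -0.43)) and Cenpf (-0.71 (interval -1.02 to -0.40)) were lower as well. After adjustment for length Uhrf1 was at -1.62, Cenpe at -0.97, Tpx2 at -0.75, Kif11 at -0.56 and Cenpf at -0.18. Most of the Cenpf difference was thus removed by the adjustment. On the other side, Cdk1 was at 3.58 CPM in control and 4.93 CPM in knockout cells (0.46 (interval 0.18 to 0.75)) and Cdc20 at 2.89 CPM in control and 3.91 CPM in knockout cells (0.44 (interval 0.12 to 0.75)). These 2 were the confined members whose intervals lay above 0, and after adjustment for length they were at 0.58 and 0.21. Both were also higher in the non-dividing cells of the knockout, by 0.78 and 0.49 (0.90 and 0.26 after adjustment).

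**Figure D5:**
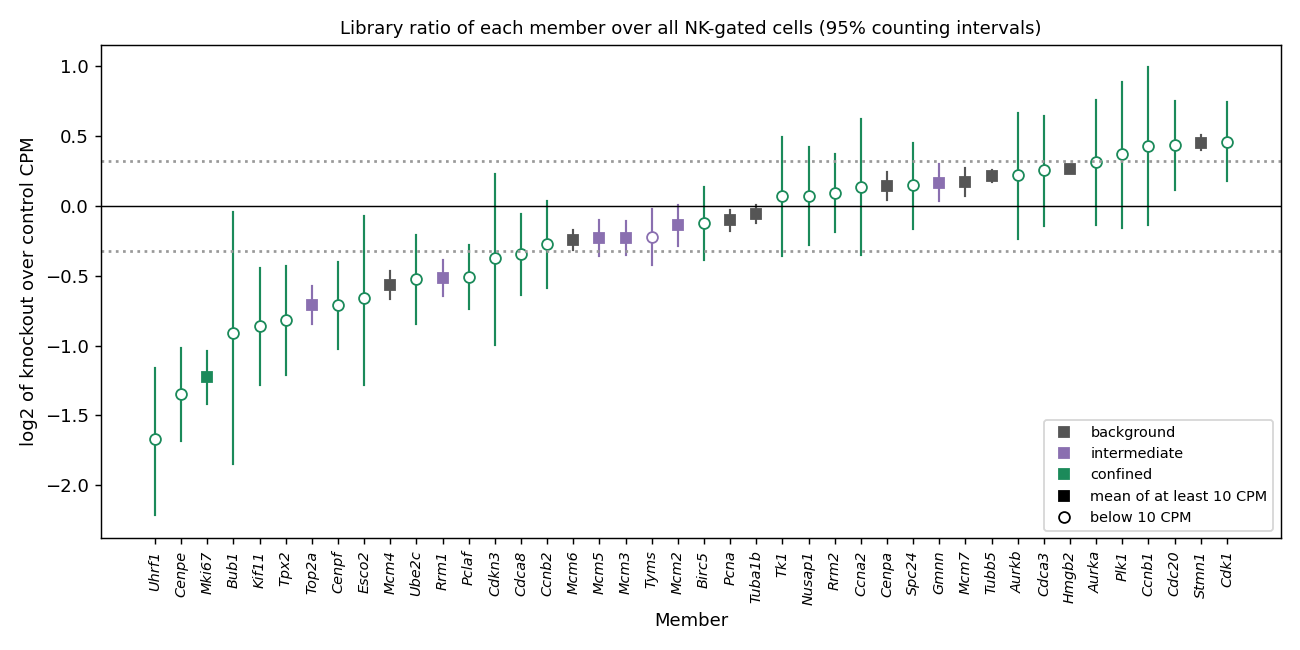
Log2 of knockout over control CPM for each member over all NK-gated cells, with 95% counting intervals; squares are members with a mean of at least 10 CPM, open circles those below, colours give the class and dotted lines mark 0.32 in either direction. Squares run from Mki67 at -1.23 to Stmn1 at 0.45.

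Inside the cycling cells the order was different. Of the 26 confined members, 18 had intervals above 0 for knockout over control CPM, none below, and 8 held 0, with a median of 1.24. Of the 4164 genes in the same range of mean level in these cells, 7.49% had intervals above 0 and 9.89% below, with a median of -0.07. Ube2c had 118 CPM in the 53 control cycling cells and 397 in the 20 knockout cycling cells, Birc5 267 and 718, and Cenpf 173 and 449. Background members in cycling cells had a median of 0.71, with Tubb5 at 1.22 and Stmn1 at 0.77. Mcm2, Mcm3 and Mcm4 went the other way, at -1.24, -0.74 and -0.73. Mki67 was about even, at 835 CPM in control and 746 CPM in knockout cycling cells. Cells with 3 or more confined members were 31 of the 53 control cycling cells (58.5%) and 16 of the 20 in the knockout (80%). The summed confined level per cycling cell ran from 0 to 12582 CPM in the control (median 2896). In the knockout it ran from 134 to 19551 CPM (median 6841). The part of this make-up of the cycling cells in the ratios was not tested. G2/M-led cells were 39.6% of the control and 50% of the knockout cycling cells. Their part in these ratios was looked at by taking each kind of cell apart.

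Within the G2/M-led cycling cells alone (21 control and 10 knockout cells), 16 of the 42 members were higher in the knockout beyond counting error, 1 was lower and 25 held 0, against 5.99% higher and 6.68% lower of the 3337 genes in the members' range of mean level. Ube2c stood at 331 CPM in control and 638 CPM in knockout cells, Cenpf at 400 and 786, while the 1 lower member was Mki67, at 1478 and 1119. Within S-led cells (32 and 9 cells), 17 were higher, 2 lower and 23 held 0, against 4.09% higher and 4.05% lower of 7661 genes, with Birc5 at 79.1 and 400 CPM and Tubb5 at 775 and 2391. The summed confined level per G2/M-led cell ran from 4068 to 12582 CPM in the control, with a median of 8681, and from 6042 to 19551 in the knockout, with a median of 9560, so the cells of the libraries overlap. The cell with the most UMIs gave 10.1% of these UMIs in the control and 21.4% in the knockout. In S-led cells the summed level ran from 0 to 9864 CPM in the control (median 973) and from 134 to 7968 in the knockout (median 2114), and 1 of the 9 knockout cells gave 25.3% of the UMIs. Counting intervals do not cover this spread from cell to cell.

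Genes that govern entry into the cycle went both ways. Of 24 cyclin D, CDK, E2F and RB family genes, CDK inhibitors and quiescence genes, 17 were measured, 2 were higher and 6 lower in the knockout, with a median of -0.12 against -0.07 over all genes, of which 14.9% were higher and 29.1% lower. After adjustment for length 1 was higher and 3 lower, against 15.5% and 18.5% of all measured genes. The highest were the CDK4 and CDK6 inhibitor genes Cdkn2d (0.48, or 0.31 after adjustment for length) and Cdkn2c (0.40, or 0.25), and the lowest the cyclin D2 gene Ccnd2 (-0.89) and the retinoblastoma gene Rb1 (-0.60). Ccnd2 was seen in 59.1% of non-dividing control cells and 36.6% of non-dividing knockout cells. Of the 64 outside genes 12 were measured, 2 higher and 5 lower against the same shares of all genes, with a median of -0.13.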

How the data were processed

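The members and the gene lists were chosen with earlier results of these data known. The deposited files hold raw counts, whole numbers of UMIs per gene in each barcode, not normalized by the authors. Per the submitters' processing notes, STAR, Cell Ranger 3.0.0 and Seurat were used with build GRCm39, and per the labels the kit was a Single Cell 3′ v2. No deposited barcode holds fewer than 500 UMIs.

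The cell filter kept barcodes with 500 or more genes and no more than 10% mitochondrial UMIs. The NK gate asked for at least 2 UMIs over Ncr1, Klrb1c and Klrk1 and at most 2 over 32 markers of other lineages. Scrublet in scanpy 1.11.5 marked 0 control barcodes and 1 knockout barcode, which is taken as a failed call, so no doublet was removed. Cells were thinned at random to 2000 UMIs for shares, and UMIs summed over cells were divided by their total for CPM. Of 65 outside genes, 64 were matched by symbol (Cip2a was not). Intervals are exact binomial (Clopper-Pearson) for shares and exact conditional binomial for ratios, at 95%. Exon lengths came from GENCODE M21 on GRCm38, matched by gene ID, and promoters from RefSeq on GRCm38.p6, and no coordinates were converted. All 42 members are named, by rule, and maturation markers by the most extreme ratios of dividing over non-dividing control cells. The steps were tested on simulated data. Scripts ran under Python 3.11.15 with pandas 2.3.3, scipy 1.17.1, matplotlib 3.10.9 and numpy 2.4.6. Alternatives covered thinning depth and seed, the number of outside genes, cell filters, the NK gate, scaling and the level limit.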

Additional observations from a re-analysis of the deposited data

How the results depend on the processing

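The share of dividing cells depends on how a dividing cell is defined. It was 0.585% in the control and 0.254% in the knockout at 1000 UMIs, 3.35% and 2.29% (ratio 0.684) with cells kept at a greater depth (3000 UMIs), and 17.7% and 6.71% (ratio 0.380) without thinning. With at least 3 outside genes it was 5.001% and 3.52% (ratio 0.705), with 6 it was 0.523% and 0.225%, and with 8, an alternative added after seeing the data, 0.286% and 0.169%. With 6 and another random seed, also added later, it was 0.552% and 0.236%, and without outside genes seen in 1% or more of cells, added later, 0.286% and 0.180%. In every one of these the knockout share was below the control share. The cause of the differences was not tested.

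The S-led share was 60.0% and 60.9% at 1000 UMIs, 61.5% and 61.3% with 3 genes, 60.4% and 45% with 6, 48.3% and 40.0% with 8, 58.9% and 38.1% with 6 and another seed, and 37.9% and 18.8% with the reduced outside list. The ratio of dividing shares in the least over the most mature range was 0.580 in the knockout at the limit of 4 and 0.986 in the control. In the knockout it was 0.188 at 1000 UMIs, 1.39 without thinning, 0.0937 with 6 genes, 0.119 with 8, 0.184 with 6 and another seed, and 0.119 with the reduced list. In the control it was 1.47 with 6 genes, 1.53 with 6 and another seed, and 2.03 with the reduced list.

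Without thinning 14 members counted as background. Higher and lower members numbered 5 and 14 at a limit of 1 CPM. The higher members numbered 2 under median-of-ratios scaling, 0 after adjustment for length, 3 in non-dividing cells (median 0.00726) and 2 in thinned cells. Of all measured genes 15.5% were higher and 18.5% lower after adjustment for length, and 14.8% and 29.6% in non-dividing cells. For the other settings the share of all genes is not given, so those counts describe the members only. Among members beyond 0.32 the log2 ratio changed sign for Cdkn3 over all filtered barcodes (0.00543) and, in non-dividing cells, for Pclaf (0.0878), Esco2 (1.14) and Bub1 (1.31). Smaller ratios also changed sign in non-dividing cells for Mcm2, Mcm3, Tyms, Cdca3, Aurkb and Nusap1. No paired analysis was possible because each group is 1 library, and no replicate could be left out. The 20 knockout cycling cells limit every statement on them.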
